A study of Rattus norvegicus with 28 samples.

Results

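Chemokines are small secreted proteins that steer white blood cells, and 7 of them were followed here: Cxcl1, Cxcl2, Cxcl6, Cxcl12, Cxcl13, Cxcl16 and Cx3cl1. They were taken by name, but with earlier results of these data known, and all 7 were measured among 14217 genes. RNA of endothelial cells, which line blood vessels, had been measured on 24 Affymetrix arrays of male rat hearts, 3 in each of 8 groups. Lewis hearts were studied without transplantation and 2, 3 and 4 days after grafting into rats of their own strain (isografts, in which donor and recipient share transplantation antigens). DA (Dark Agouti) hearts were studied without transplantation and 2, 3 and 4 days after grafting into Lewis rats (allografts, in which these antigens differ). No age and no drug treatment is given in the labels, and each graft lay in the recipient's neck, attached with cuffs. Cells were freed of leukocytes with an antibody to CD45 and then collected with an antibody to CD31, so a normal and a grafted sample went through the same separation. Leukocytes of allografts, labelled with the recipient strain Lewis, filled another 4 arrays, with 1 array for day 2, a pair for day 3 and 1 for day 4. Graft type and heart strain go together in this design: each allograft was a DA heart and each isograft a Lewis heart.

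A chemokine acts by binding a receptor that spans the membrane of the responding cell, and many chemokines are held on the vessel wall by heparan sulfate, where passing cells meet them. Cxcl1, Cxcl2 and Cxcl6 carry a glutamate-leucine-arginine motif, bind Cxcr2 and are known for drawing neutrophils to injured tissue; they are classical targets of the transcription factor NF-kB. Cxcl12 and Cxcl13 are homeostatic: Cxcl12 holds and guides cells through Cxcr4 and is scavenged by Ackr3, and Cxcl13 draws B cells and some T cells through Cxcr5. Cxcl16 and Cx3cl1 (fractalkine) are made as membrane proteins on a stalk, capture cells that carry Cxcr6 or Cx3cr1, and are cut loose by the proteases Adam10 and Adam17.

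The neutrophil chemokine genes share sequence features that the choice by name did not use. In the RefSeq order of genes on rat chromosome 14 (assembly GRCr8), Cxcl2, Cxcl1, Cxcl3, Pf4, Ppbp and Cxcl6 followed each other, with only other loci of non-coding RNA, a pseudogene and 1 uncharacterised protein-coding locus between them. In the 250 bases before the start of each gene, the NF-kB-type motif GGGNNTTTC, sought on both strands, was present for 4 of the 7 chemokines, against 1240 of 33469 RefSeq promoters (3.7%). The motif was chosen after these promoters had been read, and a match is a description of letters, not of a bound site. The 130 bases before the start are given for these 4 genes, 5′ to 3′ on the strand of the gene and credited to RefSeq, because they let the matches be compared between genes whose RNA did and did not change. Capitals mark the matches; a match on the opposite strand appears as its reverse complement. The windows lie on the minus strand of GRCr8, at chr14:17467256-17467385 for Cxcl2, chr14:17479322-17479451 for Cxcl1, chr14:17596418-17596547 for Cxcl6 and chr10:55669951-55670080 for Cxcl16.
Cxcl2: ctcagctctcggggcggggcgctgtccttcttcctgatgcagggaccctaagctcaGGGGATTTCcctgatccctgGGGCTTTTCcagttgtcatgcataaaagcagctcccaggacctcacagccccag
Cxcl1: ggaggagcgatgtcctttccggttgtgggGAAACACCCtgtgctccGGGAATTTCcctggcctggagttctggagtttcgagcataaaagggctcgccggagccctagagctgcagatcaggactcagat
Cxcl6: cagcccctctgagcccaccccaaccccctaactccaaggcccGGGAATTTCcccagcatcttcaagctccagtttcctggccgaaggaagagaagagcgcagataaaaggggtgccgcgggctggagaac
Cxcl16: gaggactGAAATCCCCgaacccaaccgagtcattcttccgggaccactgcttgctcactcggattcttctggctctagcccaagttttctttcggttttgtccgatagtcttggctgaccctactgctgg
Cxcl2 held 2 matches on its own strand, with first bases 74 and 54 bases before the start. Cxcl1 held 1 match on its own strand, from 84 bases before the start, and 1 on the opposite strand. Cxcl6 held 1 match, from 88 bases before the start, with the same 9 letters as that of Cxcl1 on its own strand. Cxcl16 held 1 match on the opposite strand. The motif TTCNNNGAA, of the type bound by STAT factors, was present in 2566 of the 33469 promoters (7.67%) and in 0 of the 7.

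Values are log2 signals, so a difference of 1 is a doubling. Differences were tested with limma over the 14217 genes, and a gene was called where its Benjamini-Hochberg adjusted p was under 0.05. Errors are standard errors (SE) of the log2 difference, with 3 arrays a group unless said. The spread of a gene was pooled over all 8 endothelial groups, so an SE can understate the spread of the groups compared. Per the design text the 3 arrays of each group are biological replicates, without saying whether each is 1 animal. The p-values rest on that pooled spread within groups. Replicates correlated with r = 0.965 to 0.995 across genes, and the lowest value was that of allograft day 4 replicates 1 and 3. The 11 measured endothelial markers of 12 listed had a mean level of 11.8 to 12.4 on every endothelial array. Their defining genes were thus strongly measured in the cells labelled endothelium. Leukocyte RNA was not absent from the endothelial arrays. The mean level of 8 pan-leukocyte markers was 6.58 to 7.12 on normal arrays, 7.34 to 8.74 on isograft arrays and 8.43 to 9.39 on allograft arrays. In such bulk samples, fewer cells of a type and less RNA per cell cannot be told apart.

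Cxcl2, a neutrophil attractant, was the chemokine of the 7 with the largest change, and its RNA rose in isografts and in allografts alike. In normal Lewis endothelium its log2 signals were 7.91, 8.84 and 7.67. They were 9.62, 11.56 and 9.87 in isografts of day 2, 10.38, 12.19 and 11.37 on day 3, and 11.88, 11.54 and 11.83 on day 4. All 9 isograft arrays thus lay above all 3 normal ones. Cxcl2 was higher by 2.21 (SE 0.55, 4.61-fold, limma adjusted p = 0.0461) on day 2, by 3.17 (SE 0.55, 8.997-fold, adjusted p = 0.00228) on day 3 and by 3.61 (SE 0.55, 12.2-fold, adjusted p = 0.000410) on day 4. It was the 1 member of 7 called on each of these days, all in the higher direction, in which 1.06%, 1.80% and 2.61% of all genes were called; 0 members were called lower, against 0.422%, 0.732% and 0.556% of all genes. At an unadjusted p under 0.05, 0 members were lower on any of these days, and Cxcl1 was higher beside Cxcl2 on days 3 and 4. The day 2 call rested on single arrays: isograft day 2 replicate 2 stood highest, and without it Cxcl2 was higher by 1.60 (adjusted p = 0.355). The call of day 2 also ended without Lewis normal replicate 1 (2.09, adjusted p = 0.157), without Lewis normal replicate 3 (1.97, adjusted p = 0.192) and without isograft day 2 replicate 3 (2.45, adjusted p = 0.0666) in the same limma test.

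In normal DA endothelium Cxcl2 stood at 8.23, 8.63 and 9.17. Allograft arrays gave 11.34, 11.82 and 12.20 on day 2, 9.31, 10.78 and 11.43 on day 3, and 10.70, 11.84 and 10.63 on day 4. Every allograft array was above every normal DA array, and the lowest of them was day 3 replicate 1. Cxcl2 was higher by 3.11 (SE 0.55, 8.64-fold, limma adjusted p = 0.00135) on day 2 and by 2.38 (SE 0.55, 5.21-fold, adjusted p = 0.00681) on day 4. On day 3 the difference of 1.83 (SE 0.55) did not pass, with a limma adjusted p of 0.0975. It passed with the replicate number as a block (adjusted p = 0.0265) and without allograft day 3 replicate 1 (2.43, adjusted p = 0.0185). That array was the lowest of its group, so leaving it out raises the difference, and the labels give no basis for the block. These 2 values are a description and no support. Over the mean of the 3 days, a comparison added after the data had been seen, Cxcl2 was higher by 3.00 (SE 0.45) in isografts and by 2.44 (SE 0.45) in allografts, and both passed, with limma adjusted p-values of 0.000275 and 0.00110.

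The size of the Cxcl2 change was not shown to differ between graft types. Allograft minus isograft change was 0.90 on day 2 (95% interval -0.71 to 2.52), -1.34 on day 3 (-2.95 to 0.27) and -1.23 on day 4 (-2.84 to 0.38), and the limma adjusted p was 0.992 or above each time. Within isografts, day 4 minus day 2 was 1.41 (SE 0.55, unadjusted p = 0.0181, adjusted p = 0.999). In allografts day 4 minus day 2 was -0.73 (SE 0.55, limma adjusted p = 0.764).

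**Figure D1:**
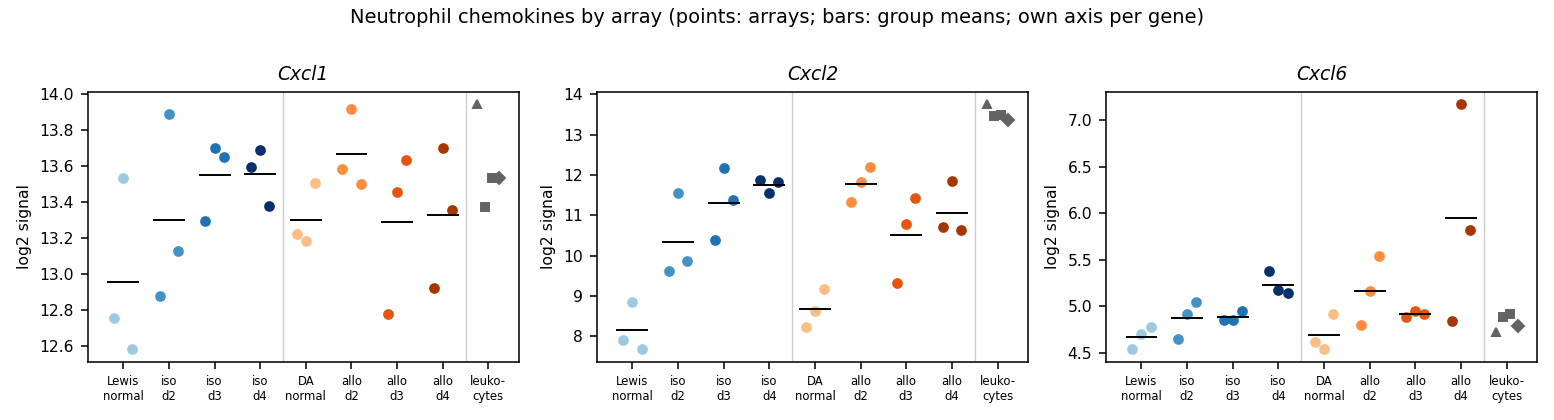
Log2 signal of Cxcl1, Cxcl2 and Cxcl6 on each array, by group on the horizontal axis (Lewis normal, isografts of days 2 to 4, DA normal, allografts of days 2 to 4, allograft leukocytes); circles are endothelial arrays, bars group means of 3, and the leukocyte arrays (triangle day 2, squares day 3, diamond day 4) are drawn after subtraction of 0.327 log2. For Cxcl2 all graft arrays lie above the normal arrays of their strain and the 4 leukocyte arrays (13.38 to 13.76) lie above all of them, while each gene has its own vertical axis.

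Leukocytes were the group with the most Cxcl2 RNA. Their arrays had been normalized apart, so a median difference of 0.327 log2 over all genes was subtracted before they were set beside the allograft endothelium, and no test was made. After that, Cxcl2 stood at 13.76 in the day 2 leukocytes, 13.46 and 13.50 in those of day 3 and 13.38 in those of day 4, against 9.31 to 12.20 over the 9 allograft endothelial arrays. The mean was higher by 2.41 log2 (5.31-fold) in leukocytes, with no overlap. The 3 genes whose pattern over the 24 endothelial arrays was most like that of Cxcl2 were Cd14 (r = 0.958), a receptor for bacterial lipopolysaccharide on monocytes and macrophages, Cd68 (r = 0.946), a macrophage lysosomal protein, and Il1b (r = 0.935), the cytokine interleukin-1 beta. Of the 10 measured macrophage markers of 12 listed, the numbers called higher on days 2, 3 and 4 were 4, 9 and 10 for isografts and 10, 9 and 10 for allografts. Of all genes, 1.06%, 1.80% and 2.61% were called higher in isografts and 3.53%, 1.55% and 7.19% in allografts. On isograft day 2 replicate 2, the array with the highest Cxcl2 of its group, the mean of the macrophage markers was 8.39, against 7.27 and 7.43 on the others. The pan-leukocyte (8.41), neutrophil (6.69), T cell (6.69) and fibroblast (9.63) means were also highest on it, so this was not particular to macrophage markers. The array with the most Cxcl2 had the highest macrophage mean on isograft day 3 and allograft days 2 and 4 too. On isograft day 4 and allograft day 3 it did not. The part of macrophage RNA in the Cxcl2 result was not tested.

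Cxcl1, the second neutrophil attractant, had high signals everywhere and no called change. Its log2 signals were 12.75, 13.53 and 12.58 in normal Lewis endothelium and 13.22, 13.18 and 13.50 in normal DA endothelium. Isografts gave 12.88, 13.89 and 13.13 on day 2, 13.29, 13.70 and 13.65 on day 3, and 13.59, 13.69 and 13.38 on day 4. Allografts gave 13.58, 13.92 and 13.50 on day 2, 12.78, 13.45 and 13.63 on day 3, and 12.92, 13.70 and 13.35 on day 4. Normal and grafted arrays overlapped on each day, and normal Lewis replicate 2 was as high as several graft arrays. Isograft minus normal was 0.34, 0.59 and 0.60 (SE 0.27 each) on days 2, 3 and 4, with limma adjusted p-values of 0.789, 0.376 and 0.325. Allograft minus normal was 0.36, -0.01 and 0.02 (SE 0.27 each). The 95% interval of the day 4 isograft difference was 0.03 to 1.17, so a doubling of Cxcl1 lies within it. These signals lay near the top of the scale, since the highest gene on an endothelial array stood at 14.29 to 14.60; its part in the small differences was not tested. In leukocytes Cxcl1 was at 13.37 to 13.94 after the subtraction, with a mean higher by 0.17 log2 than that of the allograft endothelium and overlapping signals. Its closest genes over the arrays were Dusp2 (r = 0.927), a phosphatase that acts on MAP kinases, Anxa1 (r = 0.881) and the adhesion molecule Icam1 (r = 0.864); between Cxcl1 and Cxcl2 the correlation was 0.745 over the same 24 arrays.

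Cxcl6 had low signals in most groups and was higher on allograft day 4. It stood at 4.54, 4.70 and 4.77 in normal Lewis and at 4.62, 4.54 and 4.92 in normal DA endothelium. Isograft arrays lay between 4.64 and 5.38. Allografts gave 4.80, 5.16 and 5.54 on day 2, 4.88, 4.95 and 4.92 on day 3, and 4.84, 7.174 and 5.82 on day 4. The day 4 values were far apart, and replicate 1 lay within the normal range. Their standard deviation was 1.17, against 0.03 to 0.37 in the other endothelial groups, and the SE below pools all groups. The Cxcl6 signals of normal endothelium lay under the lower quartile over genes (5.67 to 5.94 on the endothelial arrays), and the values used here carry no detection call, so no fold is given. The day 4 difference was 1.25 (SE 0.34, limma adjusted p = 0.0182), although the groups overlapped, and it did not pass without allograft day 4 replicate 2 (0.64, adjusted p = 0.0893), without DA normal replicate 1 or 2 (adjusted p = 0.0563 and 0.0730) or in a fit of the compared groups alone (adjusted p = 0.263). In isografts the largest Cxcl6 difference was 0.56 (SE 0.34, adjusted p = 0.482 in limma), on day 4. In leukocytes Cxcl6 stood at 4.72 to 4.92, no higher than most endothelial arrays.

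Cxcl12, which holds cells in place through Cxcr4, was the 1 member of 7 that fell. Its log2 signals were 13.13, 13.22 and 13.25 in normal DA endothelium. They were 12.27, 12.28 and 12.38 in allografts of day 2, 13.02, 12.76 and 12.04 on day 3, and 12.79, 12.41 and 11.64 on day 4. All 9 allograft arrays lay below all 3 normal ones, with the lowest on day 4 and a wide spread on days 3 and 4. Cxcl12 fell by 0.89 (SE 0.22, 1.85-fold, limma adjusted p = 0.0178) on day 2 and by 0.92 (SE 0.22, 1.89-fold, adjusted p = 0.00866) on day 4, and on day 3 the difference was -0.59 (SE 0.22, adjusted p = 0.226). The day 2 call ended without DA normal replicate 2, without DA normal replicate 3 or without allograft day 2 replicate 3 (highest adjusted p = 0.0672), and the day 4 call without allograft day 4 replicate 3 (adjusted p = 0.0682) or in a fit of the compared groups alone (adjusted p = 0.137); over the 6 arrays left out in turn the difference was -0.92 to -0.86 on day 2 and -1.17 to -0.60 on day 4. Over the mean of the 3 days, added after the data had been seen, it fell by 0.80 (SE 0.18, limma adjusted p = 0.00582). That call held when each of the 12 arrays was left out in turn and ended in a fit of the compared groups alone (adjusted p = 0.0745).

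In isografts the Cxcl12 differences did not pass on any day. Normal Lewis endothelium gave 13.40, 13.28 and 13.38. Isografts gave 13.07, 12.82 and 12.89 on day 2, 12.84, 12.94 and 12.97 on day 3, and 13.08, 12.93 and 12.85 on day 4. No isograft array reached the lowest normal one. The differences were -0.43, -0.44 and -0.40 (SE 0.22 each), with limma adjusted p-values of 0.554, 0.443 and 0.441, and over the mean of the days -0.42 (SE 0.18, adjusted p = 0.230). In a fit of the compared groups alone the mean of the days passed in isografts (adjusted p = 0.0109), where that of allografts did not. The change in allografts minus that in isografts was -0.46, -0.16 and -0.52 on days 2, 3 and 4, with 95% intervals of -1.11 to 0.18, -0.80 to 0.49 and -1.17 to 0.12, so a larger fall in allografts was not shown.

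Cxcl12 had 3 probe sets, which went the same way in allografts. On day 4 their differences were -0.92, -0.89 and -1.27, and on day 2 they were -0.89, -0.88 and -1.41. Of the 3, adjusted over all probe sets, 2 passed on each of these days in limma and the third had adjusted p-values of 0.0565 and 0.0878. Of the 11 endothelial markers, 0 were called in isografts, 1 was called higher and 1 lower on allograft day 2, 0 on day 3 and 3 lower on day 4, when their median difference was -0.40 against 0.00 over all genes. Of all genes, 3.53%, 1.55% and 7.19% were called higher in allografts of days 2, 3 and 4, and 2.45%, 0.724% and 4.26% lower. In isografts the highest shares of a day were 2.61% higher and 0.732% lower. The part of a lower share of endothelial RNA in the Cxcl12 result was not tested. Over the endothelial arrays the closest genes to Cxcl12 were Filip1 (r = 0.933), Zfp715 (r = 0.927) and Map3k7cl (r = 0.906).

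Leukocytes of allografts had less Cxcl12 RNA than allograft endothelium. After the subtraction it stood at 7.79 on day 2, 10.42 and 11.36 on day 3 and 8.85 on day 4, against 11.64 to 13.02 on the allograft endothelial arrays. The mean was lower by 2.79 log2 (6.93-fold), with no overlap and no test. The order of the leukocyte arrays in Cxcl12 was that of their endothelial markers, whose mean deposited signal was 8.71 on day 2, 9.87 and 10.56 on day 3 and 8.94 on day 4. The part of endothelial RNA in the leukocyte Cxcl12 signal was not tested. Without the day 2 array the difference was -2.17, and without day 3 replicate 2 it was -3.38.

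**Figure D2:**
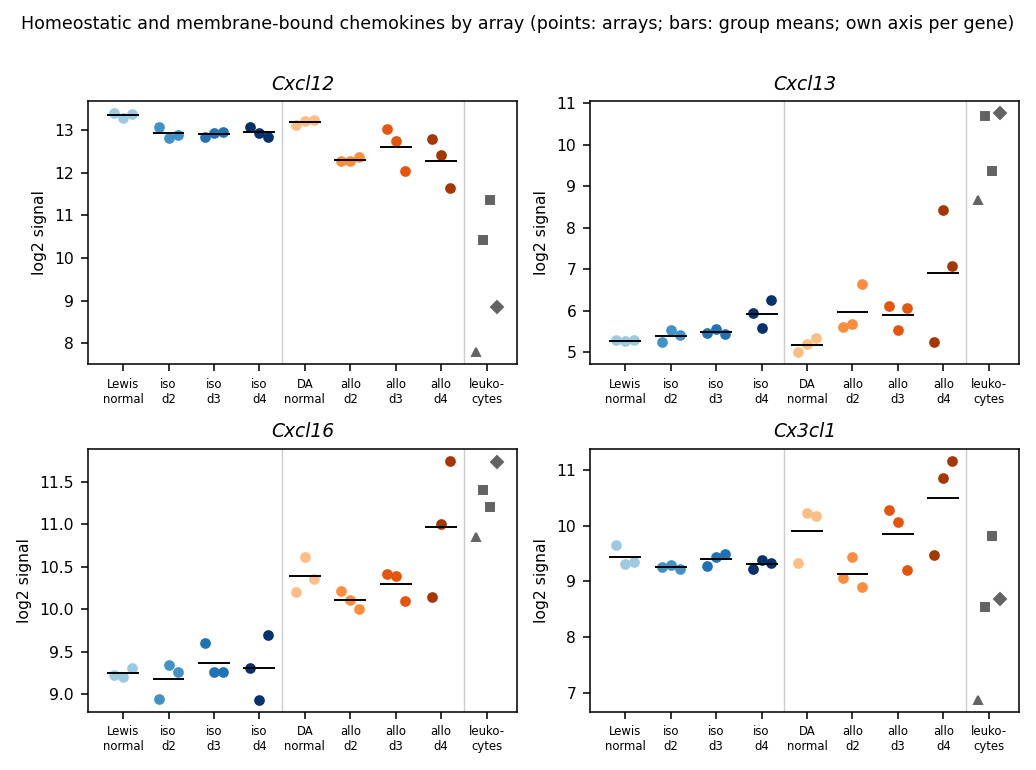
Log2 signal of Cxcl12, Cxcl13, Cxcl16 and Cx3cl1 on each array, with groups, circles, bars and leukocyte symbols as in the plot of the neutrophil chemokines and an axis of its own for each gene. Cxcl12 is lower on all 9 allograft arrays than on the 3 normal DA arrays, Cxcl16 is higher on all 12 arrays of DA hearts (10.01 to 11.75) than on all 12 of Lewis hearts (8.93 to 9.70), and Cxcl13 is highest in leukocytes.

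Cxcl13, the B cell attractant, had low endothelial signals and rose on allograft day 4. Its signals were 5.29, 5.26 and 5.28 in normal Lewis and 5.002, 5.19 and 5.35 in normal DA endothelium. Allografts gave 5.60, 5.67 and 6.64 on day 2, 6.11, 5.54 and 6.06 on day 3, and 5.25, 8.42 and 7.09 on day 4. On days 2 and 3 all allograft arrays were above the normal ones, but on day 4 replicate 1 was not. The standard deviation of the day 4 allograft arrays was 1.59, against 0.02 to 0.58 in the other endothelial groups, and the SE below pools all groups. As for Cxcl6, the normal signals of Cxcl13 lay under the lower quartile over genes, and no fold is given. The difference was 0.79, 0.72 and 1.74 (SE 0.46 each) on days 2, 3 and 4, of which that of day 4 passed, with limma adjusted p-values of 0.384, 0.705 and 0.0172. Without allograft day 4 replicate 2, Cxcl13 was higher by 0.99 on day 4 (adjusted p = 0.110); without allograft day 4 replicate 1 it was higher by 2.57 (adjusted p = 1.51e-05). It also did not pass without DA normal replicate 1, without DA normal replicate 2, without allograft day 4 replicate 3 or in a limma fit of the compared groups alone (adjusted p = 0.248). In isografts Cxcl13 lay between 5.24 and 6.25, and day 4 minus normal was 0.65 (SE 0.46, adjusted p = 0.563).

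Cxcl13 and Cxcl6, called higher on day 4 beside Cxcl2, were each the other's most alike gene of all 14217 (r = 0.940 over 24 arrays). P4ha3, an enzyme of collagen maturation, was the third gene in likeness to Cxcl6 (r = 0.899) and the second to Cxcl13 (r = 0.914); Ccn5 (r = 0.920 with Cxcl6) and F3, tissue factor (r = 0.901 with Cxcl13), completed the lists. On days 2 and 4 the allograft array with the most Cxcl6 and Cxcl13 also had the highest mean of fibroblast markers. The mean of 7 fibroblast markers was 8.49, 12.27 and 10.80 on allograft day 4 replicates 1, 2 and 3 and 8.30, 8.98 and 11.82 on day 2. On day 3 the means were 10.48, 8.32 and 7.97, and Cxcl6 hardly varied. Cxcl13 was 6.11, 5.54 and 6.06 on the same arrays and did not follow the order of the means. All normal arrays lay between 7.02 and 8.40. On allograft day 4, 4 of the 7 fibroblast markers were called higher, against 7.19% of all genes. The mean of the pan-leukocyte markers was 8.90, 9.34 and 9.39 on allograft day 4 replicates 1, 2 and 3, against 6.58 to 6.83 on normal DA arrays. The part of fibroblast RNA in the rise of Cxcl6 and Cxcl13 was not tested, nor was that of leukocyte RNA in the rise of Cxcl13. B cell markers were not called beside Cxcl13: of 4 measured of 7 listed, 0 were called in any of the 6 graft comparisons with normal endothelium, and their mean was 4.60 to 5.66 on all endothelial arrays. Of all genes, 1.06% to 7.19% were called higher and 0.422% to 4.26% lower in these comparisons.

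Leukocytes were richest in Cxcl13 as well. After the subtraction their signals were 8.68 on day 2, 10.70 and 9.36 on day 3 and 10.76 on day 4, against 5.25 to 8.42 on allograft endothelial arrays. The mean was higher by 3.61 log2, with no overlap and no test. Cxcl2 and Cxcl13 were the 2 members of 7 that were at least 2-fold higher in leukocytes with no overlap, as were 8.61% of all genes, and Cxcl12 the 1 member that was lower, as were 8.64%.

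Cxcl16, a membrane-bound ligand that also takes up oxidised lipoprotein, had higher signals in DA than in Lewis hearts. Its log2 signals were 9.23, 9.21 and 9.31 in normal Lewis endothelium and 10.20, 10.62 and 10.36 in normal DA endothelium. The groups did not overlap, and Cxcl16 was higher in DA by 1.14 (SE 0.26, 2.21-fold, limma adjusted p = 0.0368), the 1 member of 7 called between the strains, against 1.01% of all genes. The call ended when any 1 of the 6 arrays was left out (1.03 to 1.24, adjusted p = 0.0687 to 0.203). Grafted hearts kept the order. Isografts gave 8.94, 9.34 and 9.26 on day 2, 9.60, 9.26 and 9.26 on day 3, and 9.30, 8.93 and 9.70 on day 4. Allografts gave 10.21, 10.11 and 10.01 on day 2, 10.41, 10.39 and 10.10 on day 3, and 10.14, 11.01 and 11.75 on day 4.

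Over normal and grafted hearts together, a comparison added after the data had been seen, 12 arrays of DA hearts were set against 12 of Lewis hearts. Cxcl16 was higher in DA hearts by 1.16 (SE 0.13, 2.24-fold, limma adjusted p = 4.255e-06), with an adjusted p of at most 1.64e-05 whichever array was left out. In grafts this comparison holds the mismatch as well as the strain, and these cannot be told apart there. Among the 7, 2 were called in it, against 9.43% of all genes. The other was Cxcl12, lower in DA hearts by 0.44 (SE 0.11, adjusted p = 0.0134); that call ended with the mean of the Cxcl12 probe sets (-0.38, adjusted p = 0.0801) and with the most variable one (-0.35, adjusted p = 0.246). Cx3cl1 was higher by 0.50 (SE 0.16, adjusted p = 0.0597 in limma). Cxcl16 had 1 probe set, so no second measurement of it could be set beside these values.

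With transplantation itself Cxcl16 had no called change. Isograft minus normal was -0.07, 0.12 and 0.06 (SE 0.26 each) on days 2, 3 and 4, and allograft minus normal was -0.28, -0.09 and 0.57 (SE 0.26 each). On day 4 allograft replicates 2 and 3 were the highest of all endothelial arrays, while replicate 1 stood at the normal level, and the limma adjusted p was 0.189. In leukocytes Cxcl16 was at 10.85 to 11.74 after the subtraction, within the range of the allograft endothelium, and its mean was higher by 0.84 log2. Its closest genes were Polr2f (r = 0.916), Casp12 (r = 0.908) and Slc15a3 (r = 0.888).

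Cx3cl1, the fractalkine gene, lay in a narrow range in Lewis hearts and spread widely in DA hearts. It stood at 9.64, 9.31 and 9.35 in normal Lewis endothelium, and the 9 isograft arrays lay between 9.21 and 9.48. Normal DA endothelium gave 9.32, 10.23 and 10.17. Allografts gave 9.06, 9.44 and 8.90 on day 2, 10.28, 10.06 and 9.21 on day 3, and 9.48, 10.86 and 11.16 on day 4. Isograft minus normal was -0.18, -0.04 and -0.13 (SE 0.32 each), with limma adjusted p-values of 0.892 to 0.990. Allograft minus normal was -0.77, -0.06 and 0.59 (SE 0.32 each), with adjusted p-values of 0.189, 0.993 and 0.292, and normal and allograft arrays overlapped on each day. From day 2 to day 4 of allografts Cx3cl1 was higher by 1.37 (SE 0.32, 2.58-fold), each day 4 array above each day 2 array, and the limma adjusted p was 0.0730. Its closest genes were Shfl (r = 0.863), an interferon-induced inhibitor of viral translation, Il15 (r = 0.862), a cytokine that sustains natural killer cells and memory T cells, and Fam219b (r = 0.853). Leukocytes had Cx3cl1 at 6.874 on day 2, 8.54 and 9.82 on day 3 and 8.69 on day 4 after the subtraction, a mean lower by 1.34 log2 that overlapped the endothelial range. The highest of these arrays was again that with the most endothelial marker RNA.

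Across the set, the counts of called members in allografts were 1 higher and 1 lower on day 2 (Cxcl2 and Cxcl12), against 3.53% and 2.45% of all genes. They were 0 on day 3, against 1.55% and 0.724%, where 2 members, Cxcl2 and Cxcl12, had an unadjusted limma p under 0.05. On day 4 they were 3 higher (Cxcl2, Cxcl6 and Cxcl13) and 1 lower (Cxcl12), against 7.19% and 4.26%. The median difference of the 7 on that day was 0.59, and that of all genes 0.00. Over the mean of the days, 1 member was called in isografts (Cxcl2), against 4.55% of all genes, and 2 in allografts (Cxcl2 and Cxcl12), against 9.41%. Isografts and allografts were each set against their own normal hearts and share no control arrays.

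**Figure D3:**
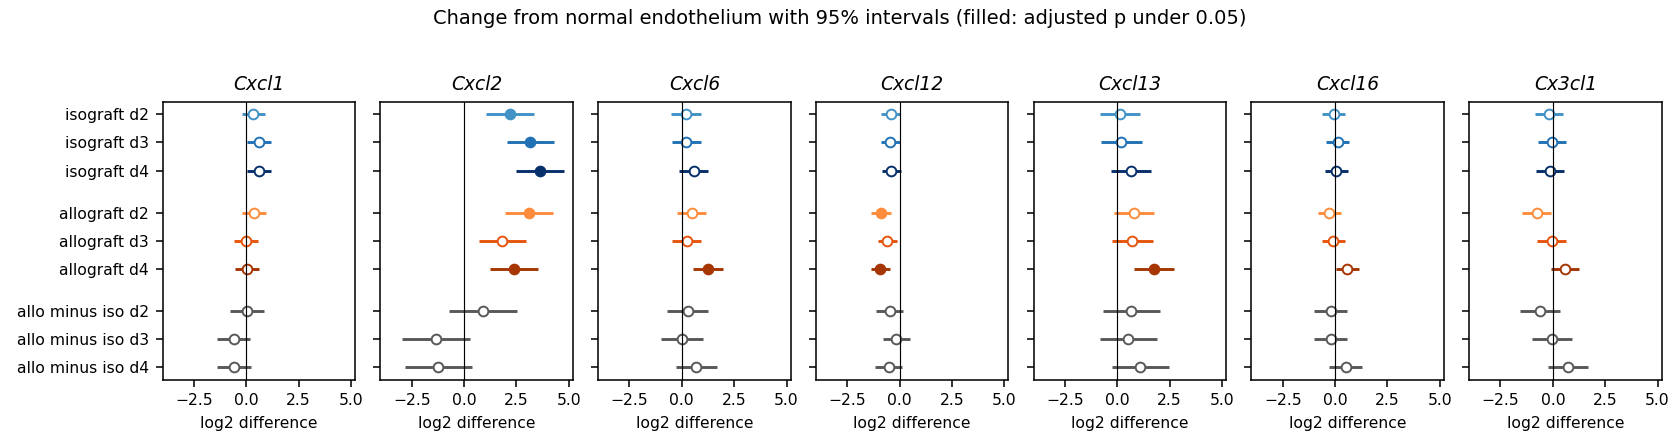
Log2 difference from normal endothelium of the same strain for each chemokine, with 95% intervals from limma, and in grey the allograft minus the isograft change; d2, d3 and d4 are days and filled points have an adjusted p under 0.05. Cxcl2 lies to the right in all 6 comparisons, Cxcl12 to the left, and every grey interval holds 0.

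No member's change was shown to differ between isografts and allografts. The difference of changes was called for 0 of 7 members on days 2, 3 and 4 and over the mean of the days, in limma, and for 0.00%, 0.00%, 0.00703% and 0.00703% of all genes; 0 members had an unadjusted p under 0.05 in any of these. The largest differences on day 4 were -1.23 for Cxcl2 (95% interval -2.84 to 0.38) and 1.09 for Cxcl13 (-0.27 to 2.45). Between day 2 and day 4, 0 of 7 were called within isografts, against 0.0352% of all genes, and 0 of 7 within allografts, against 0.380%. At an unadjusted p under 0.05 these were 1 (Cxcl2) in isografts and 3 (Cxcl6, Cxcl16 and Cx3cl1) in allografts.

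Single arrays decided much of what could be called on allograft day 4. The calls of Cxcl6 and Cxcl13 against normal ended without replicate 2, and that of Cxcl12 without replicate 3. Replicate 1 of that group had the lowest Cxcl6, Cxcl13, Cxcl16 and Cx3cl1 of the 3, and also less of the interferon-induced chemokines: Cxcl10 was 11.28 on it against 13.25 and 13.50, and Cxcl9 12.88 against 13.83 and 14.21. The means of the T cell markers were 6.92, 7.87 and 8.12 on replicates 1, 2 and 3. Because replicate 1 is singled out for its low values of these genes, smaller p-values without it follow from that choice. The values without it are a description and no support. Without replicate 1, 4 members were higher on day 4 than on day 2 of allografts in limma. These were Cxcl6 by 1.33 (adjusted p = 0.00607), Cxcl13 by 1.78 (adjusted p = 0.00226), Cxcl16 by 1.27 (adjusted p = 0.00180) and Cx3cl1 by 1.88 (adjusted p = 0.000308). Against normal DA endothelium Cxcl16 was then higher by 0.99 (adjusted p = 0.00297) and Cx3cl1 by 1.10 (adjusted p = 0.00628), and the day 4 change of Cxcl13 was larger in allografts than in isografts by 1.92 (adjusted p = 0.0399). The array carries no label that sets it apart, so the values with it stand as the result.

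Of the 8 receptors of these chemokines, 7 were measured and Cxcr6 was not. Ackr1, a decoy receptor of venular endothelium that binds inflammatory chemokines such as Cxcl1 and Cxcl2 and carries them across the vessel wall, was higher in all 6 graft comparisons. Its signals were 7.18, 7.06 and 6.76 in normal Lewis endothelium and 8.45 to 10.01 on the isograft arrays. They were 8.42, 7.90 and 8.45 in normal DA endothelium and 10.17 to 11.38 on the allograft arrays, so normal and grafted arrays were apart in both strains. Ackr1 rose by 2.81, 2.13 and 2.40 (SE 0.30 each) in isografts of days 2, 3 and 4 and by 2.39, 2.21 and 2.78 (SE 0.30 each) in allografts, with a highest limma adjusted p of 0.000240, and each call held without any single array. The allograft minus isograft change was 0.38 (SE 0.42) on day 4 and was not called. Ackr1 was higher in normal DA than in normal Lewis endothelium by 1.25 (SE 0.30, adjusted p = 0.0449), a call that ended when any 1 of the 6 arrays was left out. In leukocytes it was lower by 3.66 log2 than in allograft endothelium.

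**Figure D4:**
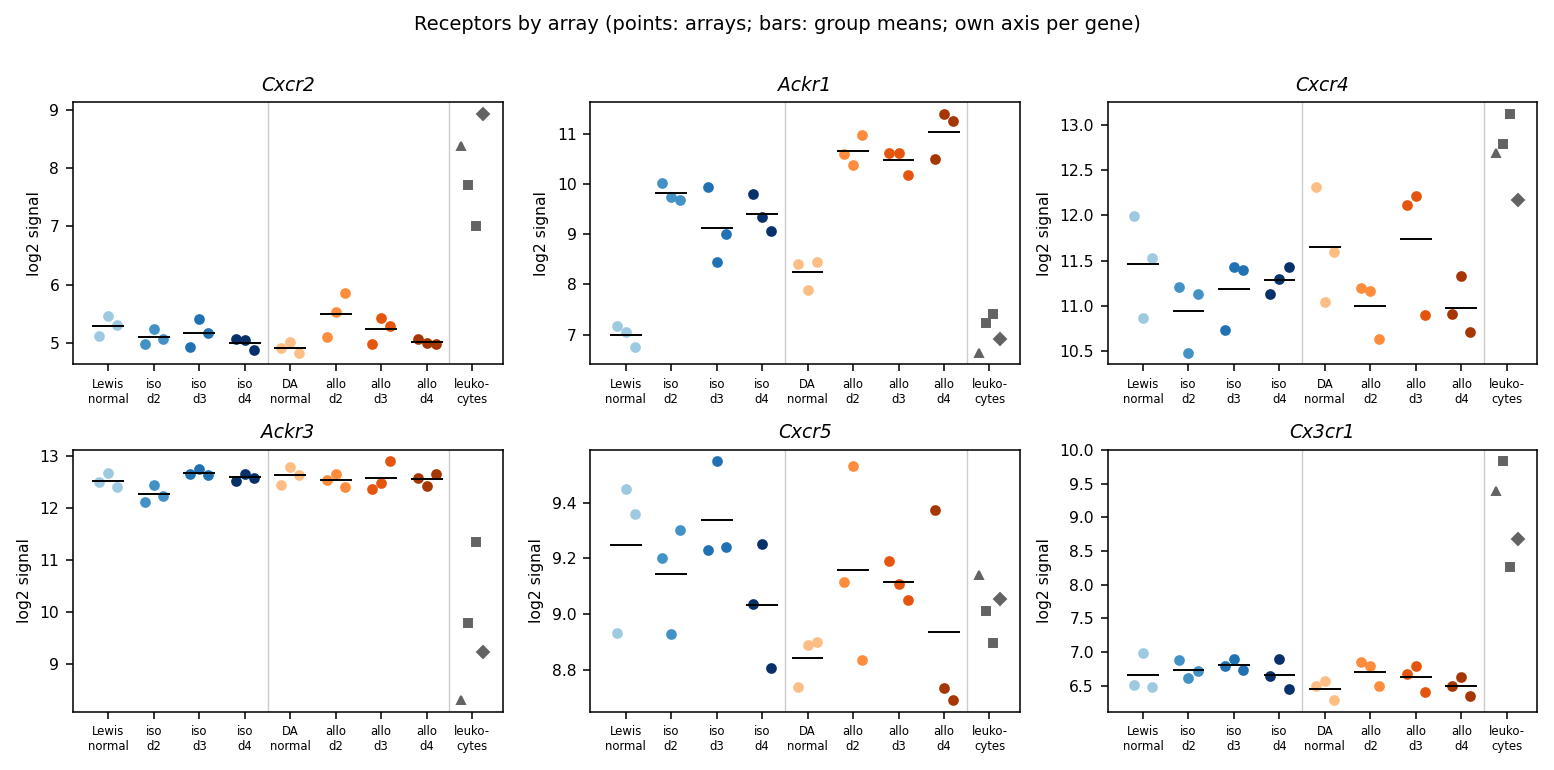
Log2 signal of 6 receptors, Cxcr2, Ackr1, Cxcr4, Ackr3, Cxcr5 and Cx3cr1, on each array, with groups, circles, bars and leukocyte symbols as in the plot of the neutrophil chemokines. Ackr1 is higher on every graft array than on the normal arrays of its strain and low in leukocytes, while Cxcr2 and Cx3cr1 are highest in leukocytes.

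Cxcr2, the receptor of Cxcl1, Cxcl2 and Cxcl6 on neutrophils, was low on endothelial arrays, at 4.84 to 5.85. It was higher on allograft day 2 by 0.57 (SE 0.16, limma adjusted p = 0.0363), a call that ended for 5 of the 6 arrays left out in turn and when array medians were subtracted (0.52, adjusted p = 0.0658). In leukocytes Cxcr2 was higher by 2.76 log2, with no overlap. Of 9 neutrophil markers measured of 14 listed, 5 were called higher on allograft day 2, against 3.53% of all genes. In each of the other 5 graft comparisons 0 were called higher, against 1.06% to 7.19% of all genes. The mean of the 9 was 5.59 to 5.69 on normal Lewis arrays. On isograft arrays it was 5.68 to 6.69, 5.89 to 6.77 and 6.09 to 6.14 on days 2, 3 and 4. On normal DA arrays it was 5.16 to 5.19. On allograft arrays of days 3 and 4 it was 5.35 to 6.26 and 5.71 to 6.07. So 0 calls do not show that neutrophil RNA was unchanged there. In the day 2 difference of changes, allograft minus isograft, 0 of the 9 were called, against 0.00% of all genes. The 5 called on allograft day 2 were S100a8 (2.87, SE 0.75), S100a9 (3.86, SE 0.90), Csf3r (1.91, SE 0.45), Il1r2 (2.67, SE 0.58) and Cxcr2 itself. Cxcr1, Mmp8, Lcn2 and Camp were measured too and were not called higher. Beside allograft endothelium, leukocytes had Lcn2 lower by 2.80 log2 and Mmp8 higher by 1.67, while Cxcr1 and Camp differed by -0.11 and -0.23. The part of neutrophil RNA in the Cxcl2 and Cxcr2 results was not tested. S100a9 was highest on allograft day 2 replicate 3, at 10.77, where Cxcl2 was highest too. That array also had the highest macrophage (9.96), pan-leukocyte (9.17) and fibroblast (11.82) means of its group, and the lowest T cell mean (6.55). The match with Cxcl2 was thus not particular to neutrophil genes.

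Cxcr4, Ackr3, Cxcr1, Cxcr5 and Cx3cr1 were called in none of the 6 graft comparisons in limma. Cxcr4, the receptor of Cxcl12, lay between 10.48 and 12.32 over the endothelial arrays and spread widely within groups. Ackr3, which removes Cxcl12, lay between 12.11 and 12.89. In leukocytes Ackr3 was lower by 2.88 log2 and Cx3cr1, the fractalkine receptor, was higher by 2.43 log2, both with no overlap. Cxcr4 was higher there by 1.45 log2 with an overlap, and Cxcr5 differed by -0.04.

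Other genes of the chemokine pathway were counted in lists chosen by function. For comparison, 1.06%, 1.80% and 2.61% of all genes were called higher in isografts of days 2, 3 and 4. In allografts the shares were 3.53%, 1.55% and 7.19%. Of 7 other measured CXC chemokines, the numbers called higher on days 2, 3 and 4 were 0, 2 and 2 for isografts and 3, 2 and 4 for allografts. Cxcl11, a ligand of the T cell receptor Cxcr3, had the largest of these differences, 6.83 on allograft day 4. Pf4, a platelet chemokine that macrophages also make, was higher by 2.55 on isograft day 4 and by 2.40 on allograft day 4 in limma, and Cxcl9 and Cxcl10 were called on allograft day 4, by 3.27 and 3.73.

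Of 19 inducers and regulators of the neutrophil chemokines, 1, 3 and 3 were called higher in isografts and 4, 2 and 5 in allografts, with 2 lower on allograft days 2 and 4. Of all genes, 1.06%, 1.80% and 2.61% were called higher in isografts and 3.53%, 1.55% and 7.19% in allografts. On allograft days 2 and 4, 2.45% and 4.26% were called lower. Il1b, the strongest of the 19, stood at 5.92, 6.86 and 6.90 in normal Lewis and at 5.46, 5.62 and 5.29 in normal DA endothelium. It was higher by 3.03 and 3.24 in isografts of days 3 and 4 and by 4.96, 3.703 and 4.07 in allografts of days 2, 3 and 4, and all allograft arrays (7.92 to 11.05) were above all normal ones. Leaving out single arrays ended the isograft calls of Il1b for 4 of 6 arrays on day 3 (highest adjusted p = 0.171) and 2 of 6 on day 4 (highest adjusted p = 0.0640). Tlr2, a receptor for bacterial lipopeptides, was called higher in all 6 graft comparisons, by 1.27 to 2.36; its isograft day 2 call ended for 2 of the 6 arrays left out in turn (highest adjusted p = 0.102). Tnf, an inducer of the same genes, fell by 1.79 and 1.55 on allograft days 2 and 4 in limma, calls that each ended for 2 of the 6 arrays left out in turn.

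Of 9 measured genes for shedding and trimming of chemokines, 1 was called lower on each isograft day, 2 and 1 on allograft days 2 and 3, and 0 were called higher. Of all genes, 0.422%, 0.732% and 0.556% were called lower in isografts and 2.45%, 0.724% and 4.26% in allografts. The shares called higher were 1.06% to 7.19%. Dpp4, a cell surface peptidase that inactivates Cxcl12 by cutting its end, gave 10.91, 10.56 and 10.71 in normal Lewis and 10.48, 10.61 and 10.59 in normal DA endothelium. Isograft arrays lay at 8.86 to 9.70, all below the normal ones. Dpp4 fell by 1.52, 1.21 and 1.32 in isografts of days 2, 3 and 4 and by 1.23 on allograft day 2, while the allograft differences of days 3 and 4, -0.86 and -0.61, did not pass in limma. With arrays left out in turn, the Dpp4 calls in isografts ended for 1 of 6 arrays on day 2, for each of 6 on day 3 and for 2 of 6 on day 4, and that of allograft day 2 for 2 of 6. Adam17, which sheds Cx3cl1, fell by 0.53 and 0.58 on allograft days 2 and 3, calls that ended for 5 and 6 of the 6 arrays left out in turn. Adam10, the other sheddase of Cxcl16 and Cx3cl1, was not called in any graft comparison.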

How the data were processed

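Deposited values were log2 signals per probe set, made by the authors with RMA in the affy package, per the submitters' processing notes; versions are not given in the sources used here. Endothelial arrays had medians of 6.51 to 6.59 and the leukocyte arrays, normalized apart, 6.83 to 6.88. Of 31099 probe sets, 57 controls, 436 with several genes and 9780 not in the platform annotation used here were left out; of 20826 with a single gene, 20758 took their symbol from RefSeq (GRCr8) by Entrez identifier. For the 4525 genes with several probe sets the one with the highest mean was kept. Every data column belonged to a sample (0 left over).

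limma 3.58.1 (R 4.3.3, data.table version 1.17.8; Python 3.11.15 with pandas 2.3.3, numpy 2.4.6 and matplotlib 3.10.9) took the 24 endothelial arrays, with a mean for each group (residual degrees of freedom 16, prior degrees of freedom 4.06), with no filter and Benjamini-Hochberg adjustment over all genes in each of 16 comparisons. Of these 12 were planned and 4, the means of days and the strains over all states, were added after the data had been seen. The script was tested on simulated data. Array signals have no counting depth; precision is set by how many arrays there are. The median SE of a difference of grafts from normal was 0.165. The members, lists and tests were chosen with earlier results of these data known. Named were all members, all receptors, up to 4 called genes of each pathway list by size of difference and, per member, the 3 genes with the highest correlation; correlations over arrays share the groups and are descriptions. Marker genes and other genes named beside a result were chosen after their values were seen.

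Alternatives were the mean of all probe sets, the most variable probe set, genes under 5 log2 left out, array medians subtracted, a trended robust prior, only the compared groups, a replicate block, and each array left out. Same-numbered arrays were checked for pairing by the correlation of their deviations from the group means. All 3 numbers were over 0.1 between isograft day 2 and Lewis normal (0.292 to 0.412), but not in the other comparisons of 2 groups, so the numbers were not taken as pairs.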

Additional observations from a re-analysis of the deposited data

How the results depend on the processing

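Among single chemokines, 8 called differences under other settings lost and 97 kept their call, and 2 uncalled ones gained and 677 did not gain one; with 1 array left out these numbers were 21, 123, 15 and 975. Not counted as a reversal were 72 sign changes of members and 48 of other named genes where both unadjusted p-values were 0.05 or above. The Cxcr5 strain difference, -0.40, not called, reversed to 0.092 with the most variable probe set. The cause of the following changes was not tested. The replicate block gave 1 called member on allograft day 3 in place of 0 and changed no other count of members; between isograft day 2 and Lewis normal every array correlated best with its own number, a hint from the data and not from the design. With the most variable probe set, and with only the compared groups, 0 members in place of 1 were called on isograft day 2. With only the compared groups, 1 in place of 4 was called on allograft day 4, 2 in place of 1 in the isograft mean of days (Cxcl12 beside Cxcl2) and 1 in place of 2 in the allograft mean (Cxcl12 lost). Between the strains over all states, the mean of all probe sets and the most variable probe set gave 1 in place of 2. The mean of all probe sets gave -2.31 for Cxcl12 in leukocytes. With 1 array left out, the counts of called members ranged as follows: 0 to 0 between normal strains, 0 to 1 on isograft day 2, 1 to 2 on allograft day 2, 0 to 1 on allograft day 3, 2 to 6 on allograft day 4, 0 to 1 in the day 4 difference of changes, 0 to 4 for allograft day 4 against day 2, 2 to 4 in the allograft mean of days and 2 to 5 between strains over all states.

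With 3 arrays a group a difference must be large to pass: the SE was 0.22 for Cxcl12 but 0.55 for Cxcl2, and for Cxcl13 (SE 0.46) even a doubling in 1 comparison could be missed. The Cxcl6 and Cxcl13 signals were low, with medians of 4.92 and 5.53 over the endothelial arrays and no detection call. Leukocyte values rest on a single median shift, with 1, 2 and 1 arrays a day.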

Other observations

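Genes of lymphoid tissue formation, which in other settings accompany Cxcl13, were called in small numbers. Of 9 measured, 1 was called higher on isograft day 2 and 1, 2 and 2 on allograft days 2, 3 and 4. The shares of all genes were 1.06% on isograft day 2 and 3.53%, 1.55% and 7.19% on these allograft days. Ccl19, a ligand of the homing receptor Ccr7, rose by 1.10 and 1.52 on allograft days 3 and 4 in limma, and both calls held without any single array. Ltb, which encodes lymphotoxin beta, rose by 1.22 and 1.56 on the same days; the day 3 call ended for 4 of the 6 arrays left out in turn. Madcam1, a mucosal vascular addressin, was higher by 0.85 on isograft day 2 and by 0.68 on allograft day 2, calls that ended for 1 and 2 of the 6 arrays left out in turn; the first also ended in a fit of the compared groups alone.

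Of 11 genes for heparan sulfate and its core proteins, on which chemokines are displayed, 0, 0 and 1 were called higher in isografts of days 2, 3 and 4 and 2, 0 and 2 in allografts. Of all genes, 1.06%, 1.80% and 2.61% were called higher in isografts and 3.53%, 1.55% and 7.19% in allografts. Of the 11, those called were the syndecans Sdc1 and Sdc4. Sdc4 was higher by 2.05 and 2.33 on allograft days 2 and 4, and Sdc1 by 1.46 and 1.77. The day 2 calls ended for 1 of 6 arrays (Sdc4) and 2 of 6 (Sdc1) left out in turn, and that of Sdc1 also in a fit of the compared groups alone. Sdc1 was also higher by 1.42 on isograft day 4, a call that ended for 4 of the 6 arrays left out in turn.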
